A study of Mus musculus with 92 samples.

Results

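The genes described here are 10 heat shock chaperones of mouse skeletal muscle: Hspa1a, Hspa1b, Hsph1, Dnajb1, Hspa8, Hsp90aa1, Hspb1, Hspb6, Cryab and Hspe1. They were taken by symbol from 13441 measured genes, and all 10 were found. They were chosen by their measured levels, spread and covariation over these same animals, so those values are given as a description and carry no test. Tests are read only for genes outside the 10, although members that are not the predictor stand among the genes tested in each fit.

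Quadriceps RNA of 92 DOz mice was sequenced, 1 library per animal. DOz is an outbred stock in which every animal carries its own mixture of alleles. All animals belonged to a single group: they received chow for life, were about 18 to 20 weeks old and had no treatment that the labels name. The series concerns very long-chain ceramides of muscle and insulin resistance, and the questions asked here are how much the chaperones differed between like-fed animals, which of them moved together and which other genes moved with them.

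Chaperones bind unfolded stretches of other proteins, keep them from clumping and help them to fold. When unfolded protein builds up, heat shock factor 1 is released from its chaperones, forms trimers and binds heat shock elements, short inverted repeats of GAA and TTC upstream of chaperone genes. Hspa1a and Hspa1b encode the stress-inducible Hsp70, Hspa8 its constantly made relative, Dnajb1 an Hsp40 partner that delivers clients to Hsp70, and Hsph1 a nucleotide exchange factor that resets it. Hsp90aa1 encodes the inducible Hsp90, which matures kinases, receptors and, in muscle, myosin. Hspb1, Hspb6 and Cryab encode small heat shock proteins, which hold unfolded protein without using ATP and in muscle sit on the Z-disc and on actin, desmin and titin filaments. Hspe1 encodes the lid of the mitochondrial Hsp60 chamber.

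The inducible pair is shown first as sequence, because it carried the widest variation of the 10 and its copies can hardly be told apart. Hspa1a lies on the minus strand of chromosome 17 at 34969190 to 34972156 and Hspa1b on the same strand at 34956436 to 34959238 (GRCm38). The promoter sequences, from RefSeq on GRCm38.p6, run 5′ to 3′ over the 250 bases before each start site, with the match to the heat shock element half-site pair GAANNTTC in capitals.
Hspa1a, chr17:34972157-34972406, minus strand: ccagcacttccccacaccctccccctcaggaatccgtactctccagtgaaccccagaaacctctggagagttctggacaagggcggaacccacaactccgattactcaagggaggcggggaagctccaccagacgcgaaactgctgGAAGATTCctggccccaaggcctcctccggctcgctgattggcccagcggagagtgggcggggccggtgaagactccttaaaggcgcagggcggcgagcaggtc
Hspa1b, chr17:34959239-34959488, minus strand: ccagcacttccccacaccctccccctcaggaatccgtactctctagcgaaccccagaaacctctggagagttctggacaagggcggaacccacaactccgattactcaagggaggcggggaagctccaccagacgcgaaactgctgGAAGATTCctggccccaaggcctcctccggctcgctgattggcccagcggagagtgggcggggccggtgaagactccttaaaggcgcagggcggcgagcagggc
The 2 sequences differed at 3 of these 250 bases. In both, the capitals cover bases -104 to -97, counted from the start site.

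RefSeq windows of 300 bases, 250 before and 50 after a start site, were present for 7 of the 10 genes. The set of windows used here held none for Hspa8, Hsp90aa1 and Cryab. GAANNTTC or TTCNNGAA, both of which read the same on either strand, was found in 6 of the 7 genes, and Dnajb1 was the gene with no match. Of all 27025 genes with a window, 4587 held one of these 8-base forms (16.97%). A 13-base form extends either 8-base form by 2 free bases and a further alternating half-site. It was found in 2 of the 7 genes, Hspe1 and Hsph1, and in 0.662% of all genes with a window. The stretches with matches in capitals are printed below to let the arrangements be compared, each with its position from its own RefSeq start site.
Hspb1, chr5:135887797-135887814, plus strand, bases -117 to -110: caagaGAAGTTTCcagat
Hspb1, chr5:135887817-135887834, plus strand, bases -97 to -90: gggcaGAACCTTCctggc
Hspb6, chr7:30553176-30553193, plus strand, bases -120 to -113: ttattGAAGTTTCtaaat
Hspe1, chr1:55088054-55088081, plus strand, bases -89 to -72: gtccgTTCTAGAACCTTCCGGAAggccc
Hsph1, chr5:149636357-149636374, minus strand, bases -54 to -47: aatctTTCTCGAAggctc
Hsph1, chr5:149636283-149636305, minus strand, bases 15 to 27: gcagaTTCTGGAAAGTTCtcctc
Hspe1 carried an unbroken run of 18 bases of alternating half-sites, and Hsph1 a 13-base run just after its start site. Hspb6 has its match before an inner start site of the gene. Among 18 listed heat shock factor target genes with a window, 7 held an 8-base form, as did 0 of 19 chaperone genes of the endoplasmic reticulum. These are matches of letters in a window and do not show binding.

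Summed per-million values ran from 898071 to 1140761 per animal (median 1006085), and the fast fibre markers summed to between 94964.7 and 196259 per-million units against 79.9 to 1471 for the slow fibre markers. Blood markers summed to between 178.5 and 25253.9 per-million units (median 797). Whether this range reflects blood content was not tested. The depth of the libraries is unknown. The sample titles end in numbers that form 5 runs separated by gaps (33, 14, 21, 11 and 13 animals). The labels do not say what the runs are, and 2 of 13441 genes (0.0149%) differed between them (limma moderated F test, Benjamini-Hochberg adjusted p under 0.05; 1120 genes at an unadjusted p under 0.05). Run means of Hspa1a lay between 4.35 and 6.20 log2 per-million units, and those of Hspa8 between 10.30 and 10.64. With the number in the library name, 82 of 13441 genes (0.610%) changed, 24 upwards (0.179%) and 58 downwards (0.432%).

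Hspa1a stood at 4.99 ± 2.08 log2 per-million units (mean ± SD, n = 92), with a lowest value of -0.18, a median of 5.16 and a highest value of 8.72. The highest animal therefore had 478 times the level of the lowest, and the upper quartile 10.2 times the lower. The 478-fold range rests on 1 low value, from an animal in which Hspa1b stood at 1.22. Counting error at that level was not tested. Hspa1b ran from 1.22 over a median of 5.23 to 8.95, at 5.06 ± 1.997 and a 212-fold range. Animals filled these ranges without a wide gap. On the summed level of the pair, called the Hsp70 pair below, the values ran from 1.69 to 9.84 with a median of 6.20, and the widest step between neighbouring animals was 0.46. The SD of Hspa1a was 9.23 times, and that of Hspa1b 8.93 times, the SD that a smooth trend over all genes gives at their mean level. Of all genes, 99.97% and 99.96% had a smaller excess.

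The copies followed each other closely. Hspa1a minus Hspa1b was -0.07 ± 0.33 (SD, n = 92), from -1.41 to 0.66, and 82 of 92 animals lay within 0.5 of equal levels. Of the 31-base words in Hspa1a transcripts, 63.8% also occur in Hspa1b, and of those in Hspa1b 67.6% occur in Hspa1a, so reads can be shared out between them, and how far this sets their agreement was not tested. Their correlation of 0.987 was the highest among all 61777170 pairs of genes with a mean of at least 1.

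**Figure D1:**
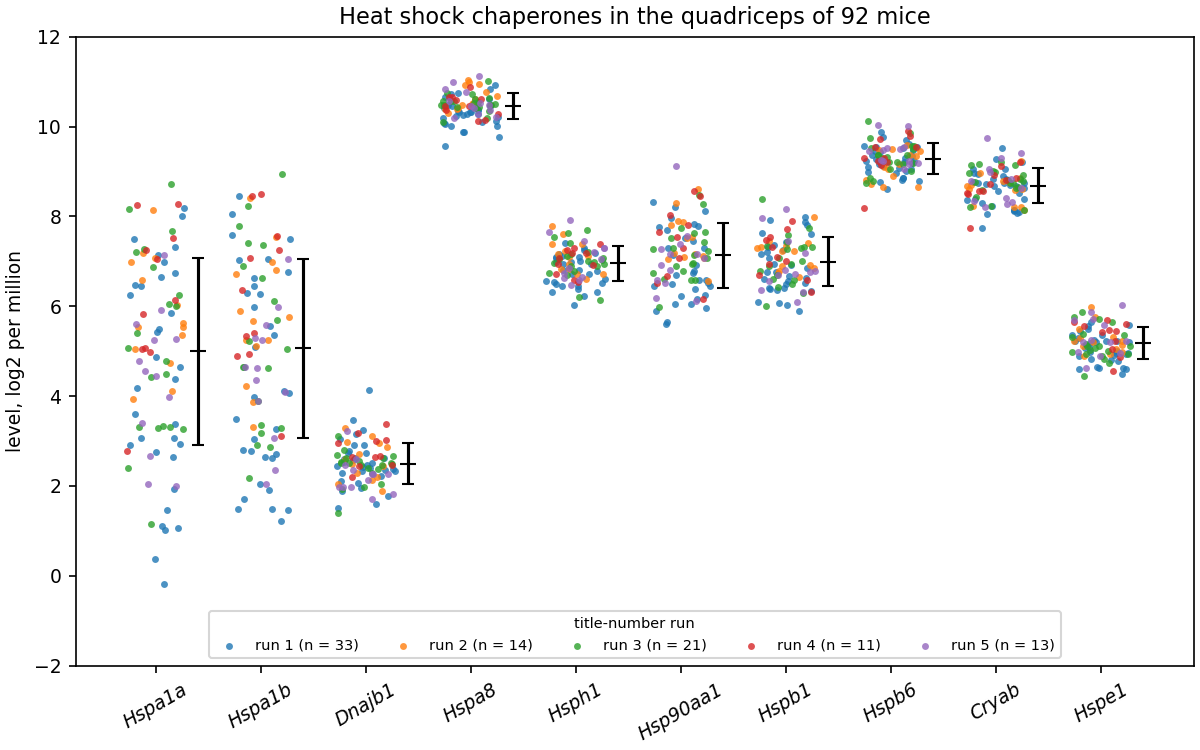
Level of each chaperone in each animal (vertical axis, log2 per-million units), coloured by title-number run, with bars for the mean ± SD over 92 animals. Hspa1a and Hspa1b spread over at least 212-fold while Hspa8, Hspb6 and Cryab keep within 4-fold.

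The constantly made Hspa8 had the smallest SD of the 10 and the highest level. It ran from 9.57 over a median of 10.46 to 11.12 log2 per-million units (10.46 ± 0.29, SD, n = 92), a 2.92-fold range. Its exchange factor Hsph1 ran from 6.04 over 6.97 to 7.92 (6.95 ± 0.38). Dnajb1 was scarce, from 1.39 over 2.47 to 4.13 (2.50 ± 0.46), and its SD was only 1.26 times the trend for genes of its level. All 3 varied within a narrow band compared with the inducible pair, whose products they serve or resemble. Of the 31-base words of Hspa8, 43.5% are shared with other genes, above all with Gm15459, which limits how exactly its reads could be assigned.

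Hsp90aa1 came next in variability. Its values ran from 5.60 over a median of 7.13 to 9.11 (7.13 ± 0.73), an 11.4-fold range and 3.58 times the trend SD. It shares 51.4% of its 31-base words with other genes, mostly Gm12346.

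Among the small heat shock proteins, Hspb1 varied most. It ran from 5.90 over 6.93 to 8.38 (6.99 ± 0.55), a 5.57-fold range and 2.67 times the trend SD, and it shares 52.3% of its words with Hsp25-ps1. Cryab ran from 7.74 over 8.73 to 9.74 (8.68 ± 0.39), and Hspb6 from 8.19 over 9.29 to 10.12 (9.28 ± 0.35). These are 3.99-fold and 3.81-fold ranges. The mitochondrial Hspe1 was similarly confined, from 4.44 over 5.19 to 6.03 (5.18 ± 0.36), a 3.02-fold range. It shares 24.8% of its 31-base words with other genes, mostly AC117239.2.

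Levels were set against each other per kilobase of merged exons, as means of log2 per-million units per kilobase. The order was Hspa8 at 8.35, Cryab at 8.12, Hspb6 at 8.08, Hspb1 at 6.95, Hsp90aa1 at 5.16, Hspe1 at 4.62, Hsph1 at 4.09, Hspa1b at 3.57, Hspa1a at 3.42 and Dnajb1 at 0.82. Quadriceps therefore held its constant Hsp70 and 2 small heat shock proteins at like levels. Hspa8 exceeded Cryab in 66 of 92 animals, by 0.24 ± 0.38 log2 units per kilobase (mean ± SD over animals). Cryab and Hspb6 did not separate, with Cryab the higher in 45 of 92. Hspb1 was above Hsp90aa1 in all 92 animals, and Hspb6 above Hspb1 in 90. The inducible pair changed place from animal to animal, its summed level per kilobase exceeding that of Hsp90aa1 in 36 of 92 animals and that of Hspb1 in 1.

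The 10 genes together made up between 1784 and 5149 per-million units (median 2971), a 2.89-fold range. Hspa8 supplied 46.4% of that sum on average, Hspb6 21% and Cryab 13.7%. Hspa1a supplied between 0.0381% and 8.20%, and Hspa1b between 0.0925% and 9.62%. The share of Hspa8 ran from 33% to 59%. In a bulk sample, fewer cells of a type and less RNA per cell cannot be told apart.

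The animals at the ends of the pair show how far the others went along. In the animal with the highest Hsp70 pair, Hspb1 was also the highest of the 92, Hsph1, Hspa8 and Hspe1 each ranked 3, Hsp90aa1 ranked 4 and Dnajb1 ranked 9. Cryab ranked 12 there and Hspb6 42. In the animal with the lowest pair, Dnajb1 ranked 91, Hspb1 90, Hspb6 86, Hsp90aa1 and Hspe1 81, Hspa8 74, Cryab 65 and Hsph1 32.

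Over the 92 animals all 45 pairs of the 10 genes correlated positively, with a median Pearson r of 0.46, against -0.00061 over all gene pairs with a mean of at least 1. An r of at least 0.5 was reached by 22 of the 45 pairs (48.9%) and by 0.337% of all pairs. These are descriptions, since covariation chose the genes, and the animals share stock, diet and laboratory. Within single title-number runs the median over the 45 pairs lay between 0.349 and 0.680.

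Hspa1a, Hspa1b, Hsp90aa1 and Hspb1 formed the tightest group. Hsp90aa1 had an r of 0.886 with Hspa1a and 0.897 with Hspa1b, and Hspb1 had 0.800 and 0.805 (0.742 to 0.905 with Hspa1a within runs). Hsp90aa1 and Hspb1 correlated at 0.810. Per SD of the Hsp70 pair, which is 2.02 log2 units, Hsp90aa1 was higher by 0.65 ± 0.03 (SE) and Hspb1 by 0.44 ± 0.03 on the log2 scale.

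A second tight link joined the constant Hsp70 to its exchange factor. Hspa8 and Hsph1 correlated at 0.810 over all animals and at 0.647 to 0.867 within runs. Both had a looser link to the inducible pair, Hspa8 at 0.607 with Hspa1a and Hsph1 at 0.548, and that link differed between runs, from 0.107 to 0.825 and from 0.0719 to 0.797. Dnajb1, the inducible co-chaperone, had an r of 0.453 with Hspa1a (0.0444 to 0.522 within runs). With Hspa8 its r was 0.205 (0.169 to 0.360 within runs).

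The filament-bound Hspb6 and Cryab correlated with each other at 0.601 (0.409 to 0.873 within runs). Hspb6 had an r of 0.0357 with Hspa1a and 0.0588 with Hsp90aa1, and Cryab had 0.213 and 0.273. Cryab had a higher r with Hsph1, at 0.525, and one of 0.377 with Hspa8. Hspb1 had an r of 0.459 with Cryab and 0.232 with Hspb6. Hspe1 was linked to Hsph1 at 0.614, to Hspa8 at 0.581, to Hspb1 at 0.527, to Hsp90aa1 at 0.520, to Cryab at 0.503 and to Hspa1a at 0.426.

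**Figure D2:**
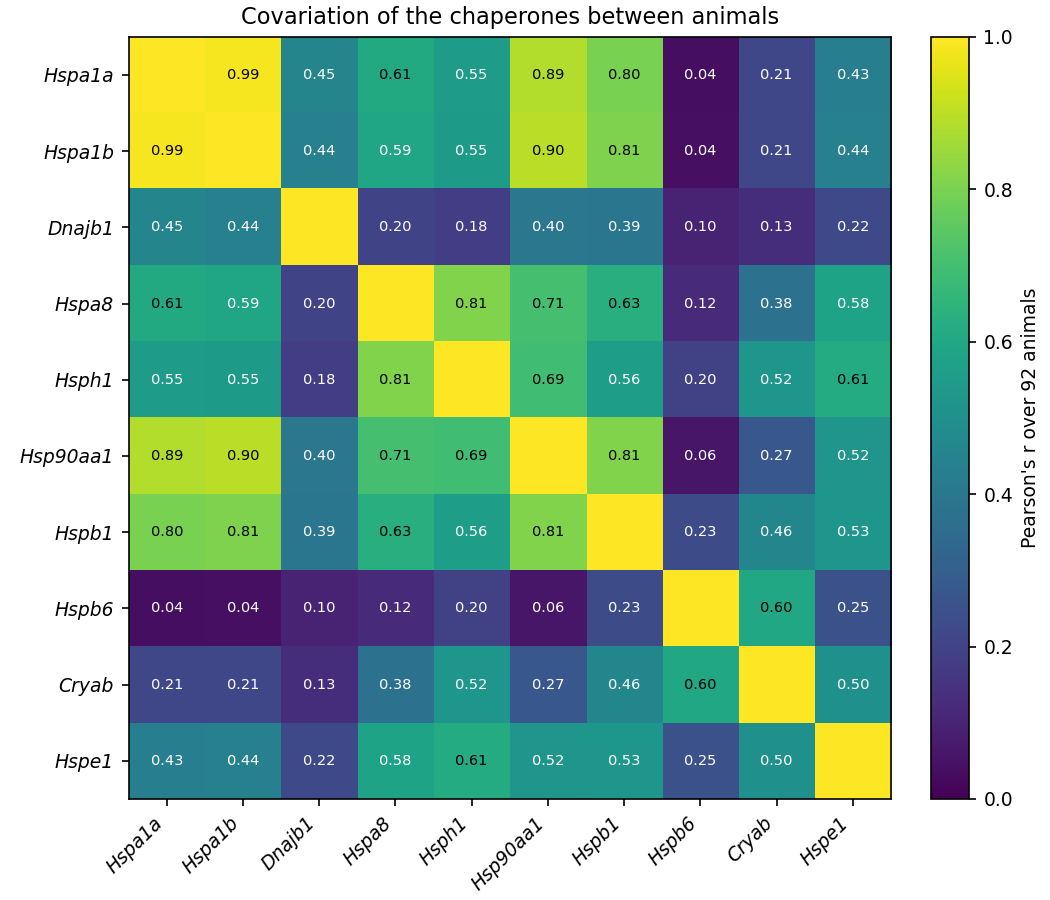
Pearson's r for each pair of the 10 chaperones over 92 animals, from 0 (dark) to 1 (light). The block of Hspa1a, Hspa1b, Hsp90aa1 and Hspb1 holds r from 0.800 to 0.987, and Hspb6 has an r above 0.5 only with Cryab.

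**Figure D3:**
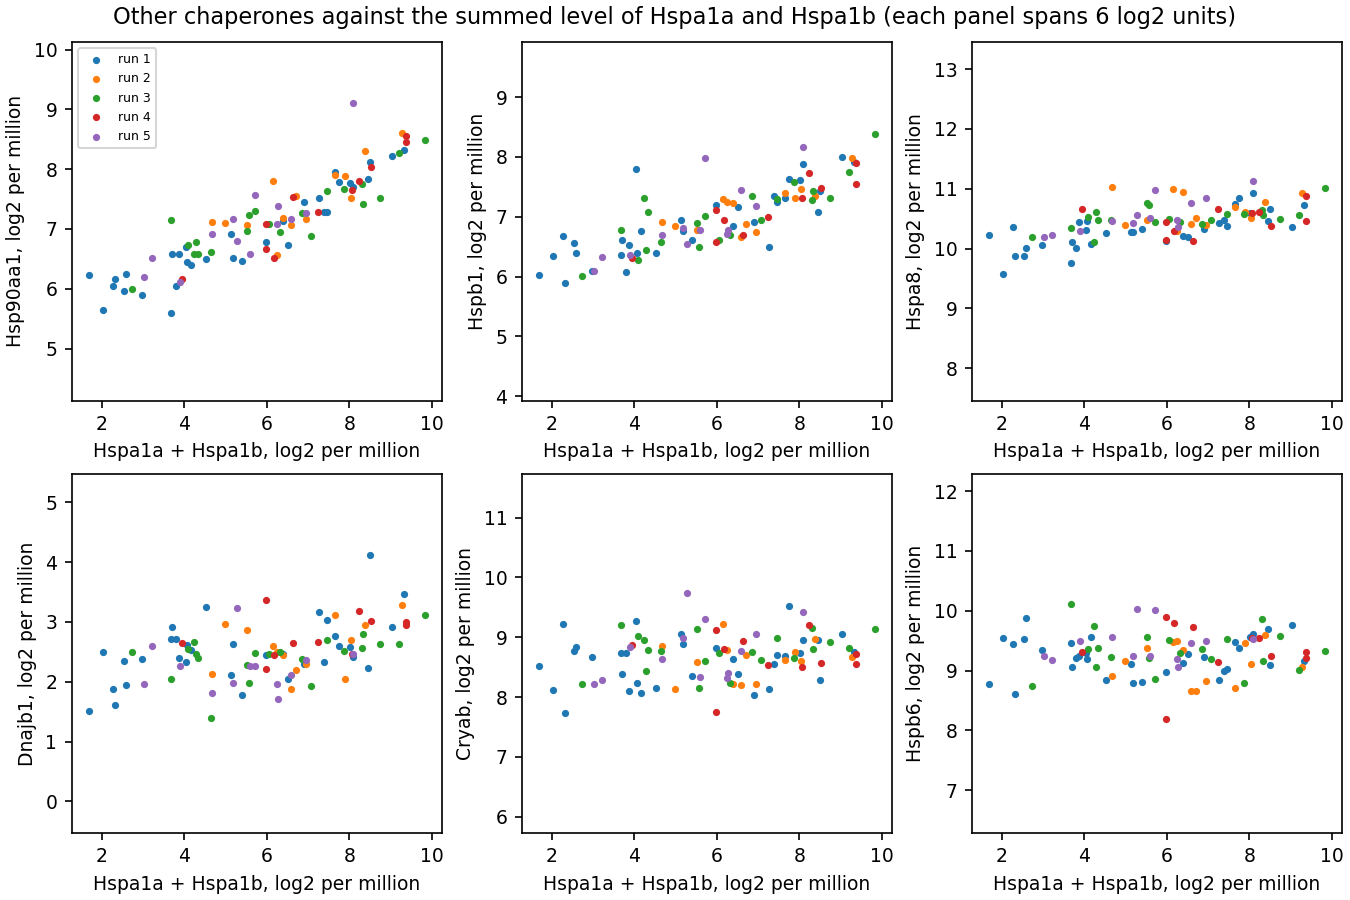
Levels of 6 chaperones against the Hsp70 pair (both axes log2 per-million units, 1 point per animal, coloured by run). Hsp90aa1 and Hspb1 climb along the pair, whereas Cryab and Hspb6 show little slope.

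Neighbouring genes were linked to different degrees. Hspe1 on chromosome 1 (55088132 to 55091307, plus strand) stands head to head with Hspd1, the gene of its Hsp60 partner, with 111 bases between their starts. Their r was 0.656, the highest that Hspe1 had with any gene outside the 10 with a mean of at least 1. Their exons overlap on opposite strands over 112 bases, and the sources used here do not say whether reads were assigned by strand. Cryab on chromosome 9 (50751325 to 50756636, plus strand) likewise faces Hspb2, another small heat shock protein, with 1029 bases between the starts and 252 bases of exon overlap, yet their r was 0.307. Hspa1l, the testis-enriched Hsp70 gene beside Hspa1a with 546 bases between them, had an r of 0.280 with Hspa1a.

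The genes outside the 10 with the most similar patterns sorted in the same way. For Hspa1a and Hspa1b the closest was Dnaja1, an Hsp40 co-chaperone, at an r of 0.902 and 0.903, followed by Nle1, a ribosome assembly factor, at 0.802 and 0.810. Next came Serpinh1, the collagen chaperone, at 0.780 for Hspa1a, and Bag3, the Hsp70 partner of selective autophagy, at 0.774 for Hspa1b. Dnaja1 was also closest to Hsp90aa1 at 0.935, followed by P4ha1, a collagen prolyl hydroxylase subunit, at 0.837 and Stip1 at 0.828. For Hspb1 the order was Serpinh1 at 0.789, Dnaja1 at 0.785 and Bag3 at 0.765.

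Ahsa1, an activator of the Hsp90 ATPase, had an r of 0.869 with Hsph1 and 0.764 with Hspa8, and Stip1, the adaptor that joins Hsp70 to Hsp90, had 0.859 and 0.804. Ahsa2 at 0.788 with Hsph1 and P4ha1 at 0.742 with Hspa8 completed these sets. Hspe1 was followed after Hspd1 by Ahsa1 at 0.650 and Unc45b, the myosin chaperone, at 0.627.

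Dnajb1 had other company: the transcription regulators Id1 at 0.633, Klf2 at 0.631 and Klf4 at 0.611, none of which is a chaperone. Hspb6 was closest to Actn2 of the Z-disc at 0.721, to the small heat shock protein Hspb7 at 0.705 and to the filament protein Fhl1 at 0.669. Cryab was closest to Stbd1, a glycogen-binding protein, at 0.621, to the lipid phosphatase Plpp1 at 0.585 and to the secreted chaperone Clu at 0.581. The lowest r within a run among all these closest genes was 0.219, for Dnajb1 with Klf4.

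Across all genes, 471 of 13439 changed with the Hsp70 pair (3.50%), 259 upwards (1.93%) and 212 downwards (1.58%), by limma with Benjamini-Hochberg adjusted p under 0.05. Slopes are given per SD of the pair, on the log2 scale. Of 20 listed targets of heat shock factor 1, 15 rose and 0 fell, with a median slope of 0.11 against -0.00097 over all genes. The lists were chosen with earlier results of these data known, so counts over lists, here and below, are a description. Chaperones of the endoplasmic reticulum rose in 12 of 21 cases, with 0 falling and a median of 0.07. Dnaja1 rose by 0.47 ± 0.02 (SE; adjusted p = 3.36e-32 by limma), Serpinh1 by 0.40 ± 0.03 and Bag3 by 0.24 ± 0.02. Dnajb4, a muscle Hsp40, rose by 0.23 ± 0.03, the Hsp110 gene Hspa4l by 0.22 ± 0.04 and Stip1 by 0.20 ± 0.02.

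Smaller rises among the heat shock factor targets included those of Chordc1 at 0.13 ± 0.03, Dnaja4 at 0.13 ± 0.04 and Fkbp4 at 0.10 ± 0.02. Hsp90ab1, the constant Hsp90, rose by 0.08 ± 0.02, and Dedd2, Cacybp, Ahsa1 and Hspa4 rose by 0.09, 0.08, 0.08 and 0.07. The 5 targets that did not pass were Hspa1l, Zfand2a, Ubb, Mrpl18 and Hspa2, at slopes of 0.13, 0.08, 0.03, -0.03 and -0.15. For Hspa1l the SE was 0.05 and the adjusted p 0.157 by limma. With 8 marker scores of other cell types as covariates, 8 of the 20 still rose (Bag3, Chordc1, Dnaja1, Dnajb4, Fkbp4, Hspa4l, Serpinh1 and Stip1), and 1.90% of all genes passed in place of 3.50%.

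In the endoplasmic reticulum, Creld2 rose by 0.19 ± 0.03, Sdf2l1 by 0.18 ± 0.04, the secreted factor Manf by 0.16 ± 0.03 and Hspa5, the Hsp70 of that compartment, by 0.15 ± 0.02. All 21 slopes of the list were positive. The count stayed at 11 or 12 under each alternative fit.

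Other chaperone machines took a small part. The myosin chaperone Unc45b rose by 0.23 ± 0.02 and Ptges3, the Hsp90 co-chaperone p23, by 0.15 ± 0.02, the only 2 of 12 Hsp90 co-chaperones to pass. Of 20 Hsp70 co-chaperones, St13 (0.13 ± 0.02) and Dnajb2 (0.08 ± 0.02) rose. Of 14 genes of the chaperonin TRiC and prefoldin, Cct3 (0.08 ± 0.02), Cct6a (0.06 ± 0.01) and Cct2 (0.05 ± 0.01) rose. Hspd1 at 0.09 ± 0.02 was the single one of 14 mitochondrial chaperones and proteases, and 0 of 31 proteasome subunits and 0 of 17 oxidative phosphorylation genes passed in either direction.

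The heat shock factors themselves did not pass: Hsf1 had a slope of 0.0045 ± 0.02 and Hsf2 one of 0.01 ± 0.02, both in log2 mRNA level per SD of the pair. Among the 5 other small heat shock proteins 0 passed, with slopes from -0.06 for Hspb2 to 0.03 for Hspb8. At an unadjusted p under 0.05, 2005 genes of the whole table passed this fit.

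Nr4a3 and Atf3 rose most steeply of the genes outside the 10 whose mean was 1 or more. Nr4a3, a nuclear receptor induced by exercise and catecholamines, rose by 1.09 ± 0.13 (adjusted p = 5.47e-10 by limma), and Atf3, a stress-induced repressor, by 0.77 ± 0.09. Both had positive slopes in 5 of 5 runs. Of 21 immediate-early genes 7 rose and 0 fell, Nr4a1 by 0.21 ± 0.05 and Ier5 by 0.21 ± 0.05. Nle1 rose by 0.60 ± 0.05, the mitochondrial carrier Slc25a25 by 0.53 ± 0.11, the clock output repressor Nfil3 by 0.48 ± 0.06, the filament repair gene Xirp1 by 0.44 ± 0.06 and Banp, a chromatin regulator, by 0.44 ± 0.05. The predicted gene Gm49668 rose by 0.48 ± 0.10.

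Of 14 glucocorticoid targets 5 rose, among them Pdk4 (0.38 ± 0.09), which brakes pyruvate oxidation, Angptl4 (0.30 ± 0.09), Tsc22d3 (0.19 ± 0.05) and Zbtb16 (0.17 ± 0.05). Pdk4, Angptl4, Tsc22d3 and Zbtb16 did not pass with the level of the clock-controlled gene Dbp as a covariate, a fit in which 1.85% of genes passed.

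The steepest falls were mostly those of scarce genes. Gm11266 fell by 0.44 ± 0.07, Gm37759 by 0.37 ± 0.07, Ctxn3 by 0.36 ± 0.10, Trp53i11, a gene induced by p53, by 0.35 ± 0.05 and the transcription cofactor Dach1 by 0.34 ± 0.07. Mchr1 (fell by 0.30 ± 0.07), E2f2 (fell by 0.29 ± 0.09), Cybb, a subunit of the phagocyte oxidase (fell by 0.28 ± 0.07), and Ttc9 (fell by 0.27 ± 0.08) had means under 2 log2 units. Of 19 clock genes 2 rose and 3 fell: Dbp fell by 0.30 ± 0.09, Bhlhe41 by 0.16 ± 0.04 and Bhlhe40 by 0.15 ± 0.04. Dbp had a negative slope in 2 of 5 runs, and its call held in 4 of 9 alternative fits and ended with the run as a covariate. Bhlhe40 held in 6 of 10 and Bhlhe41 in 7 of 10, and neither passed with 3 principal components, 8 marker scores or Dbp as covariates. The call of Bhlhe40 also ended with the run as a covariate.

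Of the slow fibre, fast fibre, adipocyte, macrophage, endothelial, fibroblast, blood, satellite cell and smooth muscle markers 0 passed on the pair, and of 7 Schwann cell markers 1 did. The 6 blood markers all had negative slopes, with a median of -0.20, and the 10 adipocyte markers all positive ones, with a median of 0.12. The pair had an r of -0.06 with the share of mitochondrial transcripts and of -0.04, -0.19 and 0.25 with the first 3 principal components.

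Some calls on the pair ended under an alternative fit. Those of Ahsa1, Ctxn3 and Mchr1 ended only with the marker scores, that of Nr4a1 only with 3 principal components and that of Cybb only with Dbp as a covariate. Of 10 alternatives, Cct6a and Tsc22d3 held in 8, Cacybp, Dedd2, Dnaja4 and Hsp90ab1 in 7, Dnajb2, E2f2, Hspa4 and Pdk4 in 6, Cct2 and Ttc9 in 5, and Angptl4 and Zbtb16 in 4. Apart from these and the 3 clock genes that fell, the genes named as having changed with the pair passed in each alternative.

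**Figure D4:**
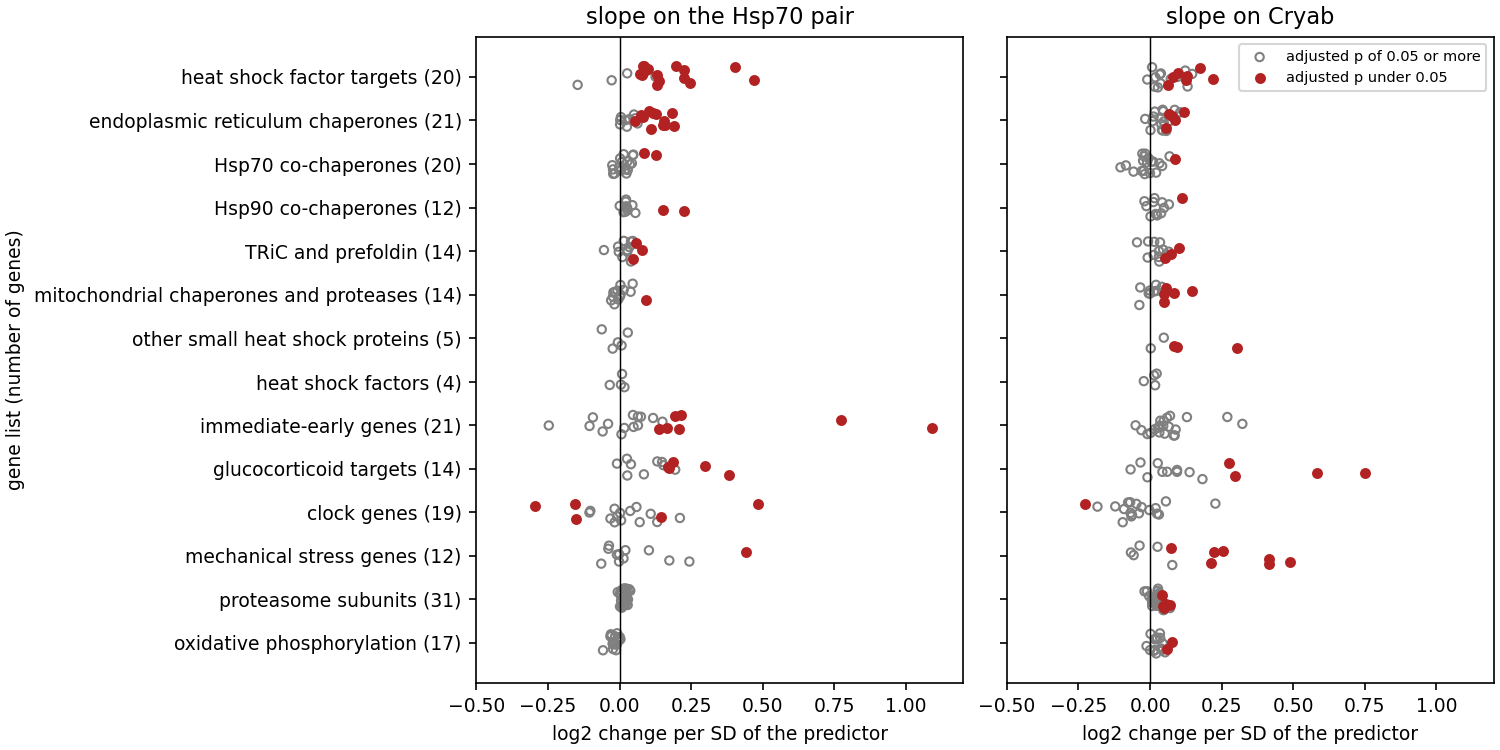
Slope of each listed gene (1 point per gene, log2 change per SD of the predictor) on the Hsp70 pair (left) and on Cryab (right), with filled points for adjusted p under 0.05 by limma. On the left 15 of 20 heat shock factor targets and 12 of 21 endoplasmic reticulum chaperones are filled, and on the right 7 of 12 mechanical stress genes and 3 of 5 small heat shock proteins.

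In the same kind of fit, 954 of 13440 genes changed with Cryab (7.10%), 471 upwards (3.50%) and 483 downwards (3.59%). Small heat shock proteins and strain-responsive genes rose: 3 of the 5 other small heat shock proteins did, with a median slope of 0.08 against -0.0028 over all genes, and 7 of 12 mechanical stress genes did, with a median of 0.14. In neither list did a gene fall. Hspb7, a small heat shock protein of heart and skeletal muscle, rose by 0.30 ± 0.05 per SD of Cryab (adjusted p = 0.000129 by limma), the neighbour Hspb2 by 0.10 ± 0.03 and Hspb8, the partner of Bag3, by 0.08 ± 0.02. Hspb3 and Ift25 did not pass, at 0.05 and 0.0023.

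Among the mechanical stress genes, Csrp3, the Z-disc muscle LIM protein, rose by 0.49 ± 0.11, and the ankyrin repeat proteins Ankrd2 and Ankrd1, which shuttle between titin and nucleus, by 0.41 ± 0.09 and 0.41 ± 0.10. Mustn1 rose by 0.25 ± 0.06. The metallothioneins Mt2 (0.75 ± 0.18) and Mt1 (0.58 ± 0.12) had the steepest slopes among passing genes outside the 10 with a mean of at least 1, followed by the predicted genes Gm56906 (0.57 ± 0.11), Gm48942 (0.54 ± 0.13) and Gm20186 (0.50 ± 0.11). Rrad, a small GTPase that restrains calcium channels, rose by 0.49 ± 0.12. With 3 principal components as covariates the slopes of Mt2 and Mt1 were 0.085 and 0.13 and neither passed.

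Heat shock factor targets rose with Cryab in 7 of 20 cases. They were Hspa4l (0.22 ± 0.04), Dnaja4 (0.17 ± 0.04), Bag3 (0.13 ± 0.03), Stip1 (0.13 ± 0.03), Cacybp (0.10 ± 0.02), Ahsa1 (0.08 ± 0.02) and Hsp90ab1 (0.06 ± 0.02). Dnaja1 and Serpinh1, which led with the pair, had slopes of 0.10 and 0.12 here, at adjusted p of 0.269 and 0.132 by limma. Of 14 mitochondrial chaperones and proteases 5 rose, among them the protease Htra2 (0.15 ± 0.04) and Hspd1 (0.08 ± 0.02). Proteasome subunits rose in 5 of 31 cases, with Psmb4 at 0.07 ± 0.02, and endoplasmic reticulum chaperones in 5 of 21. With 3 principal components as covariates, Psma4, Psmb4, Psmb5 and Psmd11 did not pass, nor did the endoplasmic reticulum genes Dnajb11, Manf, Pdia6 and Xbp1 or the mitochondrial genes Clpp, Grpel1 and Htra2.

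Ces1d, a lipid esterase, fell by 0.36 ± 0.07 per SD of Cryab. The others that fell furthest were scarcer: Aldh1a7 by 0.34 ± 0.11, the Wnt inhibitor Apcdd1 by 0.34 ± 0.08, the endothelial repressor Bcl6b by 0.30 ± 0.07 and Cntnap2 by 0.29 ± 0.09. The clock output gene Hlf fell by 0.23 ± 0.05 and was 1 of 19 clock genes to pass.

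All 9 slow fibre markers had positive slopes on Cryab, with a median of 0.26, though 0 passed, all 6 blood markers had negative ones, with a median of -0.26 and 0 passing, and the fast myosin Myh4 fell by 0.09 ± 0.02, 1 of 10 fast fibre markers to pass. Cryab had an r of 0.42 with the third principal component and 0.35 with the first. With 3 principal components as covariates 0.677% of genes passed in place of 7.10%, and with 8 marker scores 3.62%. The mechanical stress count was then 4 and 6, and of the small heat shock proteins only Hspb7 still passed in either fit, with slopes of at least 0.23 over all the alternatives. Ahsa1, Ankrd2, Bag3, Cacybp, Csrp3, Dnaja4, Gm56906, Hspa4l, Hspb7, Hspd1 and Stip1 passed under each of the 8 alternatives. Each other call named here on Cryab ended with 3 principal components, with slopes of 0.17 for Ankrd1, 0.08 for Mustn1, 0.01 for Psmb4, -0.07 for Hlf, -0.13 for Apcdd1 and -0.10 for Cntnap2. Other lost calls kept more of their slope in that fit, at 0.45 for Gm20186, 0.40 for Gm48942, -0.28 for Ces1d, -0.23 for Bcl6b and 0.08 for Hspb2. That of Hsp90ab1 held in 2 of 8 alternatives, those of Aldh1a7 and Hspb2 in 4 and that of Cntnap2 in 5.

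Hspe1, the mitochondrial gene, changed with 504 of 13440 genes (3.75%), 310 upwards (2.31%) and 194 downwards (1.44%). Its Hsp60 partner Hspd1 rose by 0.13 ± 0.02 (adjusted p = 1.9e-08 by limma), the mitochondrial Hsp70 gene Hspa9 by 0.05 ± 0.01 and its exchange factor Grpel1 by 0.05 ± 0.01, which made 3 of 14 in the mitochondrial list. Also rising were 11 of 20 heat shock factor targets, with a median slope of 0.10 against -0.0028 over all genes, 10 of 31 proteasome subunits and 6 of 14 genes of TRiC and prefoldin. Among them were Ahsa1 (0.12 ± 0.01), Stip1 (0.17 ± 0.02), Dnaja1 (0.24 ± 0.05), Hspa4l (0.23 ± 0.04), Psmd11 (0.07 ± 0.02) and Cct3 (0.09 ± 0.02). Unc45b rose by 0.20 ± 0.03.

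Nr4a3 (0.63 ± 0.16), Gm48942 (0.53 ± 0.13), Gm56906 (0.50 ± 0.11), Atf3 (0.47 ± 0.11) and Gm49668 (0.46 ± 0.10) had the steepest slopes on Hspe1 among passing genes outside the 10 with a mean of at least 1. E2f2 (fell by 0.38 ± 0.08), Tnmd, a tendon gene (fell by 0.34 ± 0.11), Dach1 (fell by 0.32 ± 0.07) and Gm11266 (fell by 0.31 ± 0.07) fell furthest. Each of the 8 fibroblast markers had a negative slope, with a median of -0.09, and Lum fell by 0.14 ± 0.04, a call that held in 3 of 8 alternatives. With the 8 marker scores as covariates 0.260% of genes passed, the heat shock factor target count was 4 and the proteasome count 0, which was also 0 with 3 principal components and 4 without the 2 animals farthest from the median of Hspe1. Ahsa1, Gm56906, Hspa4l, Hspd1, Stip1 and Unc45b passed under each of the 8 alternatives, Hspd1 with slopes of 0.12 to 0.14. Each other call named here on Hspe1 ended with the marker scores as covariates, and those of Hspa9, Grpel1, Cct3, Psmd11, Nr4a3, Tnmd, Dach1, Gm11266 and Lum also with 3 principal components. Of TRiC, Cct4, Cct6a and Cct8 likewise did not pass in either fit. All 6 blood markers had negative slopes on Hspe1, with a median of -0.20.

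Whether slopes on the pair and on Cryab differed was tested with both in one model. The difference passed for 768 of 13438 genes (5.72%), with the greater slope on the pair in 3.33% and on Cryab in 2.39%. Of the heat shock factor targets 6 of 20 had the greater slope on the pair, among them Dnaja1 by 0.47 ± 0.04 (adjusted p = 2.9e-18 by limma), Serpinh1 by 0.36 ± 0.05, Dnajb4 by 0.24 ± 0.04, Bag3 by 0.15 ± 0.03 and Fkbp4 by 0.10 ± 0.03. The other 13 targets included Hspa4l, Ahsa1 and Hsp90ab1, with differences of 0.01 ± 0.06, -0.01 ± 0.03 and 0.02 ± 0.03. Hspa2, a testis-enriched Hsp70 gene, was the 1 target with the greater slope on Cryab, at -0.37 ± 0.08.

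Of the 5 other small heat shock proteins, Hspb7 (-0.39 ± 0.09) and Hspb2 (-0.20 ± 0.05) had the greater slope on Cryab, and 0 had it on the pair. The same held for 4 of 12 mechanical stress genes, among them Ankrd1 (-0.58 ± 0.16), Mustn1 (-0.37 ± 0.09) and Fhl1 (-0.29 ± 0.08), while Xirp1 went with the pair (0.29 ± 0.09). Of 17 oxidative phosphorylation genes 3 also had the greater slope on Cryab, among them Cox4i1 (-0.11 ± 0.03) and Cox5a (-0.09 ± 0.03). The widest differences among passing genes with a mean of at least 1 were Nr4a3 (1.05 ± 0.21) and Aldh1a7 (0.66 ± 0.17) towards the pair and Rrad (-0.86 ± 0.18), Ttc9 (-0.77 ± 0.12) and Gpnmb, a macrophage and melanocyte glycoprotein (-0.67 ± 0.17), towards Cryab.

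The difference was negative for all 9 slow fibre markers, with a median of -0.23 and 0 passing, and had a median of 0.26 over 10 adipocyte markers, of which 0 passed. It was negative for 7 of 8 macrophage markers and passed for 1, Cd68 (-0.40 ± 0.13), whose call held in 4 of 8 alternatives and whose difference was -0.13 with 3 principal components. Myh4 had the greater slope on the pair (0.17 ± 0.04). With 3 principal components 3.09% of genes passed and with 8 marker scores 3.34%. Dnaja1, Serpinh1, Dnajb4, Bag3, Hspa2, Hspb7, Hspb2, Nr4a3 and Ttc9 passed under each of the 8 alternatives. The calls of Ankrd1, Mustn1, Rrad, Fkbp4 and Gpnmb ended with either covariate set, those of Fhl1, Xirp1 and Aldh1a7 with the marker scores and those of Cox4i1, Cox5a and Myh4 with 3 principal components. That of Xirp1 also ended with the title-number run as a covariate, and that of Fhl1 with ranks of the predictor. Of the endoplasmic reticulum chaperones 2 of 21, Hspa5 and Pdia4, had the greater slope on the pair and 1, Dnajb11, had it on Cryab. The calls of Hspa5 and Pdia4 ended with the title-number run as a covariate. That of Dnajb11 ended with 3 principal components and with the marker scores.

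**Figure D5:**
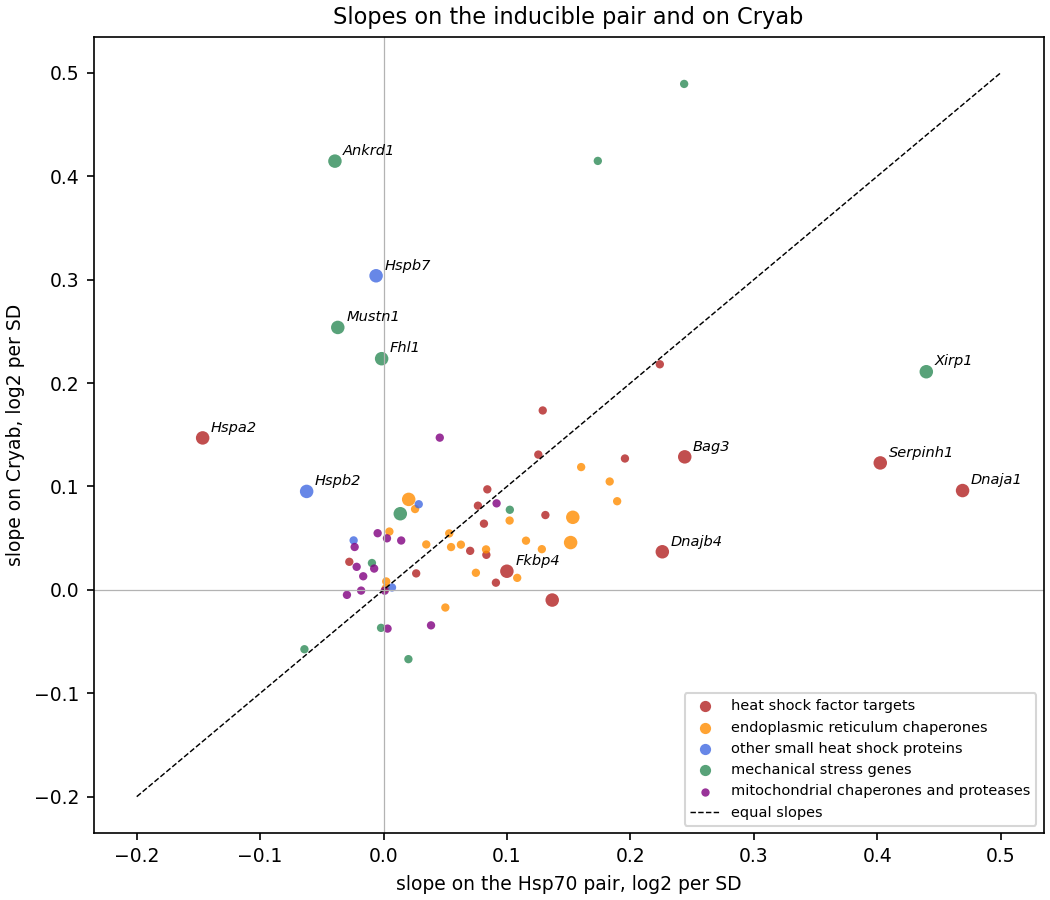
Slope of each gene of 5 lists on the Hsp70 pair (horizontal) and on Cryab (vertical), each from its own fit, in log2 per SD. Large points are those whose difference passed in the joint model, with names for genes described in the text: Dnaja1 and Serpinh1 lie far below the line of equal slopes, and Hspb7, Hspb2 and Ankrd1 far above it.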

How the data were processed

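The authors deposited log2 values per gene and sample. Raising 2 to each value gives sums between 898071 and 1140761 per sample, so they are read as log2 per-million units, and the exact scaling is not given in the sources used here. Per the submitters' processing notes, bcl2fastq, MultiQC, kallisto 0.50.1 and edgeR were used with the genome build mm10 (GRCm38). Per the labels' protocols, KAPA mRNA HyperPrep libraries were made from 500 ng of RNA. Of 13456 lines, 15 repeats were removed.

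All fits used limma 3.58.1 in R 4.3.3 on the log2 values (lmFit, eBayes with trend; Benjamini-Hochberg over all genes), with the predictor standardised over 92 animals. The Hsp70 pair is log2 of the summed per-million values of Hspa1a and Hspa1b, which avoids depending on how reads were split between the copies. A predictor and its members were left out of its own fit. Coordinates, exon lengths and shared 31-base words come from GENCODE M21, promoters from RefSeq on GRCm38.p6. Spread was compared with a lowess trend (fraction 0.3) of SD on mean. Of 308 genes in 24 lists, 299 were measured.

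The members and lists were chosen with earlier results of these data known. Named genes are the 10 members, the 3 most correlated genes of each, in each fit the 10 steepest passing genes of either sign (mean of at least 1), and up to 4 passing genes per list; genes of the lists of heat shock factors, their targets and small heat shock proteins could all be named. Some listed genes are not reported here by name. Labels give no litter or culture, so p-values rest on the spread between animals. The fits were tested on simulated data with known slopes.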

Additional observations from a re-analysis of the deposited data

How the results depend on the processing

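No paired analysis was possible because the labels give 1 group. Shares of genes past the threshold that stayed within 1.5 times the reported ones are not repeated. The share was 1.90% (8 marker scores) and 1.85% (Dbp as a covariate) for the Hsp70 pair against 3.50%. It was 0.677% (3 principal components) and 3.62% (marker scores) for Cryab against 7.10%, 0.893% and 0.260% for Hspe1 against 3.75%, and 3.09% and 3.34% for the slope difference against 5.72%. For title-number runs it was 0 with 3 principal components against 0.0149% (852 genes at an unadjusted p under 0.05 by limma), and for the library number 1.25% (mean of at least 1), 0.0595% (3 principal components) and 2.20% (run as a covariate) against 0.610%. List counts, chosen as results after seeing the data, moved for heat shock factor targets on the pair (8 with marker scores) and on Hspe1 (4 with marker scores), other small heat shock proteins on Cryab (1 with 3 principal components, 1 with marker scores), mechanical stress genes on Cryab (4 with 3 principal components) and proteasome subunits on Hspe1 (0 with either, 4 without the 2 farthest animals, 5 with ranks). Of 1811 recomputed slopes of named genes, 1442 kept direction and side of the threshold, 368 kept direction only and 1 turned, that of Psma4 on Cryab (-0.0059 with 3 principal components). Every alternative was passed by 31 of 54 genes followed on the pair, 13 of 55 on Cryab, 7 of 56 on Hspe1 and 16 of 48 for the difference. The scaled median absolute deviation was 2.63 for Hspa1a, 2.53 for Hspa1b and 0.354 for Dnajb1. Per kilobase of the longest transcript, levels were 4.70 for Hsph1, 8.80 for Hspa8, 8.52 for Cryab and 5.24 for Hspe1. The median r among the chaperones stayed between 0.413 and 0.476 under 4 alternatives added after seeing the data. The causes were not tested. Depth is unknown, so counting error could not be separated from animal differences, most of all for Dnajb1 and other scarce genes.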
